A study of Mus musculus with 12 samples.

Results

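Hedgehog receptors and Gli factors were described in sorted mouse mammary epithelial cells. The 7 genes are Smo, Ptch1, Hhip, Gli1, Gli2, Gli3 and Sufu, taken by name from the 20114 single-locus entries of a table of gene counts. All 7 of 7 passed the filter on low counts, which left 14039 loci for testing.

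The study sequenced RNA of 12 libraries, in 3 groups of 4. The donors were adult female mice, 9 weeks old, whose background strains were Swiss Webster, C57BL/6 and 129X1/SvJ. Recombined cells had the genotype mT-mG/SmoM2;MMTV-Cre and were sorted as SmoM2 positive, with the green EGFP signal of the recombined reporter. Unrecombined cells had the same genotype and were sorted as SmoM2 negative, with the red tdTomato signal. Wild type cells came from mT-mG/SmoM2;+ animals without Cre and were red, so all 3 groups carried the mT-mG reporter and the SmoM2 allele. MMTV-Cre is Cre recombinase under a mouse mammary tumour virus promoter, and the mT-mG reporter changes a cell from red to green once Cre has acted. No green group lacked SmoM2, so SmoM2, Cre action and sorted colour cannot be told apart in the comparisons with recombined cells. The labels do not say which animals gave each library, so p values measure the spread between these libraries, which may in part be technical.

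In the Hedgehog pathway the membrane protein Patched (Ptch1) holds Smoothened (Smo) inactive until a Hedgehog ligand binds Patched. Active Smoothened releases the Gli transcription factors from restraint by Sufu: Gli2 is the main activator, full-length Gli3 is mostly processed to a repressor, and Gli1 is an activator whose gene is itself a target. Ptch1, Hhip and Gli1 are transcribed in response to Gli. Newly made Patched holds Smoothened back again, and Hhip takes up ligand. In the mammary gland the pathway is known to be held largely silent in normal epithelium, with Gli3 acting as a repressor during bud formation. SmoM2 is a form of Smoothened from basal cell carcinoma that signals without ligand, through replacement of a tryptophan in its last membrane-spanning helix.

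The wild type coding stretch around that tryptophan is shown because SmoM2 differs from Smo there and gene counts do not separate the forms. Capitals mark the codon, which lies in exon 9 of 12 of Smo and in a reading frame of 793 codons, on the plus strand at chr6:29758442-29758504 of GRCm38 (GENCODE M21 annotation).
Smo: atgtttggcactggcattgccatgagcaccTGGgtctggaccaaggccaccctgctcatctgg

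The 250 bases before the RefSeq start of 3 genes are shown because Ptch1, Hhip and Gli2 had the highest log2 fold changes of the 7 in recombined against wild type libraries. They come from RefSeq on GRCm38.p6, each in the direction of the gene, on the minus strand, and capitals mark the GC box GGGCGG or its reverse CCGCCC. The Ptch1 window is chr13:63565736-63565985, the Hhip window is chr8:80058009-80058258 and the Gli2 window is chr1:119053620-119053869. In GENCODE M21 the Ptch1 gene begins further upstream, at chr13:63573598, so its window lies within the gene, outside its exons. The Hhip and Gli2 windows lie outside their genes.
Ptch1: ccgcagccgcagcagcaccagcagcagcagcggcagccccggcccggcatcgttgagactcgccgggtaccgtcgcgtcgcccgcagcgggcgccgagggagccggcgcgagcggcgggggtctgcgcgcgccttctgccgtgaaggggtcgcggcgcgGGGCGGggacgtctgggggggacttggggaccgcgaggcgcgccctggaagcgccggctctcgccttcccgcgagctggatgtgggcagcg
Hhip: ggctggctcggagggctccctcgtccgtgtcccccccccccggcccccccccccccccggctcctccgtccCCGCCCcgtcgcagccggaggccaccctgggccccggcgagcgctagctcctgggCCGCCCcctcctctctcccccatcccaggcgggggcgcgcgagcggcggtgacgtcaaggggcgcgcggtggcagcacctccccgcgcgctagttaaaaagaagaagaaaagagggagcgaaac
Gli2: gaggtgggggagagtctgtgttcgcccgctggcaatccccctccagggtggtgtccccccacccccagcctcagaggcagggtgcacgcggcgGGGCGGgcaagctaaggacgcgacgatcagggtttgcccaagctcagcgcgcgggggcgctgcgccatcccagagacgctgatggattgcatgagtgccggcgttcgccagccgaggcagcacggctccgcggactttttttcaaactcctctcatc

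Promoter windows were found for 6 of the 7 genes, with Gli1 unmatched. The Gli motif TGGGTGGTC was searched on both strands (reverse GACCACCCA) of the full promoter sequences, which were not cut to the bases before the start. It had no exact match for the 6 genes, and 0.253% of 32851 full RefSeq sequences held one. The closest match had 2 mismatches in Smo, Hhip and Gli2 and 3 in Ptch1, Gli3 and Sufu, where 58.3% of all full sequences had a match with at most 2. The GC box and the base content were taken from the part before the start alone, so their percentages belong to shorter windows. In the 250 bases before the start a GC box was present for 5 of the 6 genes, with none for Smo, and in 32.7% of all windows. The G and C content of these bases was 54.0% to 78.4% in the 6 genes, beside a median of 52.4% over all windows. Its part in the GC box count was not tested. The GC box was marked after the search for the Gli motif had given no exact match. These matches describe letters in a window and no site of binding.

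Total counts per library lay between 19581993 and 34779433, and levels are given as CPM, counts relative to the library size, after scaling by the trimmed mean of M values (TMM). Recombined 3 and 4 stood apart from the other libraries, with counts at 14256 and 14601 loci against 15289 to 16814. Library numbers in the labels run in a lower and a higher series, and the higher one holds recombined 3 and 4, unrecombined 3 and 4 and wild type 4. The labelled cell type was checked with 8 pan-luminal and epithelial markers, whose summed level was 2557 (recombined 4) to 6817 CPM over the 12 libraries. Summed fibroblast markers (12 genes) exceeded this level in unrecombined 1, 3 and 4 and in no other library. In unrecombined 1 they were at 7386 CPM beside 4159 CPM of the epithelial markers. Summed salivary gland markers (7 genes) reached 17407 CPM in recombined 2, 86207 in unrecombined 2 and 38309 in wild type 2. They were at 1204 CPM in recombined 1 and 1294 in unrecombined 1, beside 44.0 to 70.3 in the remaining libraries. The part of this in the results below was not tested beyond the fits named. With the salivary level as a covariate the 5 calls described next were kept in both comparisons with recombined cells.

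In recombined cells 5 of the 7 genes exceeded their wild type level: Hhip and Ptch1 by 12.6- and about 12-fold, Gli2 by 7.83-fold, Gli1 by 5.95-fold and Smo by 2.05-fold. Higher calls made up 4.17% of all 14039 loci, and calls in either direction 6.55%. The same 5 genes were higher than in unrecombined cells, where 3.08% of loci were called higher and 5.22% in either direction. Gli3 and Sufu did not pass the test in either comparison. Between unrecombined and wild type cells none of the 7 passed. The median log2 fold change of the 7 genes was 2.57 against wild type and 1.85 against unrecombined cells, beside -0.02 and -0.01 over all loci. Calls are from the quasi-likelihood F test of edgeR with Benjamini-Hochberg adjustment over all loci, at a threshold of 0.05.

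**Figure D1:**
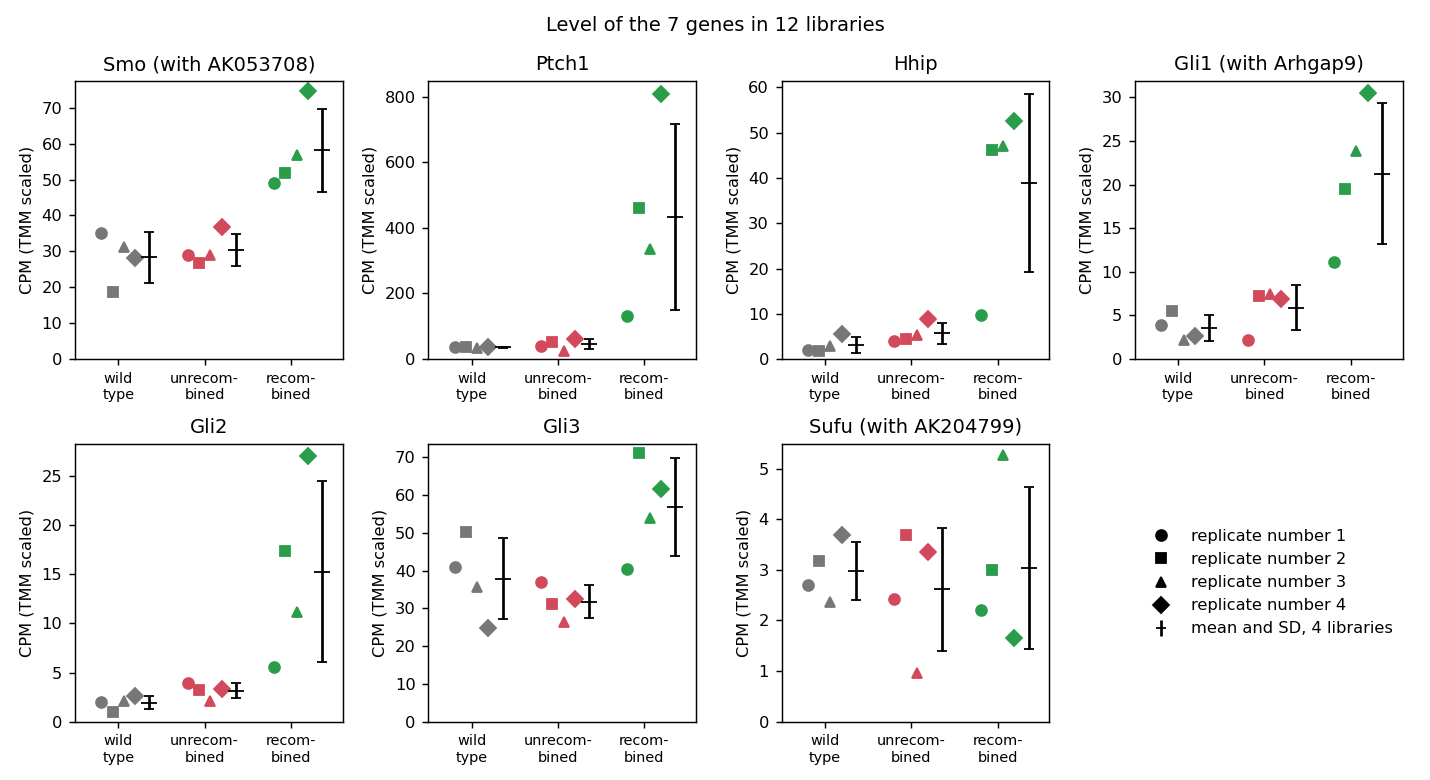
Level in CPM (linear axis from 0) of each of the 7 genes in every library, with the mean and SD of 4 libraries per group, and a point shape for each replicate number. Recombined libraries (green) lie above all red libraries for Smo, Ptch1, Hhip, Gli1 and Gli2, recombined 1 is the lowest of the green libraries for these 5 genes, and the groups overlap for Sufu.

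Smo, the signal transducer at the head of the intracellular pathway, lay in recombined libraries 1 to 4 at 49.1, 51.9, 56.9 and 74.7 CPM. Unrecombined libraries had 28.9, 26.8, 29.0 and 36.8 CPM and wild type libraries 35.2, 18.7, 31.2 and 28.2 CPM. Every recombined library was above every red one, and the red groups overlapped. The log2 fold change was 1.04 ± 0.22 (SE) against wild type, with an adjusted p of 0.0115 in edgeR. Against unrecombined cells it was 0.93 ± 0.22, with an adjusted p of 0.0208. The second call was lost, at adjusted p values between 0.0615 and 0.0715, without recombined 4 or without unrecombined 1, 2 or 3. The Smo count holds reads of the transcript AK053708 as well, and how reads of the SmoM2 transcript were counted is not given in the sources used here.

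Ptch1, the Hedgehog receptor, had the widest spread of the 7 within the recombined group. Its level was 133, 459, 337 and 809 CPM in recombined libraries 1 to 4. It was 41.0, 52.0, 24.8 and 61.3 CPM in unrecombined libraries and 38.1, 36.8, 34.5 and 35.9 CPM in wild type libraries. The highest recombined library was 6.10 times the lowest, and yet the lowest was above all 8 red libraries. Wild type libraries lay close together, with a coefficient of variation of 4.24%, where that of recombined libraries was 65.3%. This was a log2 fold change of 3.58 ± 0.44 against wild type (adjusted p = 0.000427, edgeR) and 3.28 ± 0.44 against unrecombined cells (adjusted p = 0.000528, edgeR).

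Hhip encodes a surface protein that binds and sequesters Hedgehog ligands. It was found at 9.71, 46.2, 47.1 and 52.6 CPM in recombined libraries. Unrecombined libraries had 3.98, 4.37, 5.35 and 8.93 CPM and wild type libraries 1.98, 1.86, 2.92 and 5.52 CPM. Recombined 1 lay just above the highest red library, unrecombined 4, and far below the other 3 recombined libraries. Its log2 fold change was 3.66 ± 0.53 against wild type (adjusted p = 0.0012, edgeR) and 2.78 ± 0.51 against unrecombined cells (adjusted p = 0.00496, edgeR).

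Gli1, the activator that is itself a target, was at 11.2, 19.5, 23.9 and 30.5 CPM in recombined libraries. In unrecombined libraries it was at 2.14, 7.20, 7.44 and 6.86 CPM and in wild type libraries at 3.85, 5.50, 2.23 and 2.69 CPM. The recombined libraries did not overlap with the red ones, among which unrecombined 1 was lowest. On the log2 scale the difference was 2.57 ± 0.45 against wild type (adjusted p = 0.00398, edgeR) and 1.85 ± 0.44 against unrecombined cells (adjusted p = 0.0234, edgeR). The second call was lost, at adjusted p values between 0.0503 and 0.0715, without recombined 3 or 4 or without unrecombined 1, 2 or 4.

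The Gli1 count is joined with Arhgap9, a gene known from blood cells, and the exons of these genes on opposite strands share 62 bases in GRCm38. No strand setting is given in the sources used here, so which gene a read came from is not known. Over all loci 2.38% were called lower in recombined than in wild type cells. Of the macrophage and dendritic markers, 4 of 7 tested were lower there and none was higher. None of these markers was lower once recombined 3 and 4 were left out. Their summed level was 16.0 to 26.0 CPM in recombined, 16.7 to 37.2 in unrecombined and 36.6 to 116 in wild type libraries, and their part in the joined count was not tested.

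Gli2, the main activator downstream of Smoothened, was at 5.52, 17.3, 11.2 and 27.0 CPM in recombined libraries. It was at 3.91, 3.20, 2.08 and 3.36 CPM in unrecombined libraries and at 1.98, 1.01, 2.14 and 2.65 CPM in wild type libraries. All recombined libraries were above all red ones, and recombined 1 was nearest to them. Fitted log2 fold changes were 2.97 ± 0.48 against wild type (adjusted p = 0.00251, edgeR) and 2.28 ± 0.47 against unrecombined cells (adjusted p = 0.0103, edgeR).

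Gli3, the family member with the strongest repressor form, was at 40.4, 71.2, 53.8 and 61.7 CPM in recombined libraries. It was at 37.0, 31.0, 26.5 and 32.5 CPM in unrecombined libraries and at 41.0, 50.2, 35.5 and 24.7 CPM in wild type libraries. Recombined 1 fell within the wild type range, while all 4 recombined libraries were above the unrecombined ones. For Gli3 the log2 fold change was 0.58 ± 0.23 against wild type (adjusted p = 0.166, edgeR), with an approximate interval of 2 SE from 0.12 to 1.05. Against unrecombined cells it was 0.84 ± 0.23, with an adjusted p of 0.0528 in edgeR. That difference passed the threshold with DESeq2 (adjusted p = 0.0132). In edgeR it passed without recombined 1, wild type 2 or wild type 4 (adjusted p of 0.0212, 0.0433 and 0.0357) and with the library number series or the salivary level as a covariate (0.0476 and 0.0418).

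Sufu, which binds and restrains the Gli proteins, was at 2.21, 3.01, 5.28 and 1.65 CPM in recombined libraries. It was at 2.43, 3.69, 0.97 and 3.36 CPM in unrecombined libraries and at 2.69, 3.17, 2.36 and 3.69 CPM in wild type libraries. The 3 groups overlapped. Its log2 fold change was 0.02 ± 0.50 against wild type (adjusted p = 0.988, edgeR), with an interval of 2 SE from -0.98 to 1.03. Sufu had 903 counts in all 12 libraries, the fewest of the 7, and its count includes AK204799.

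**Figure D2:**
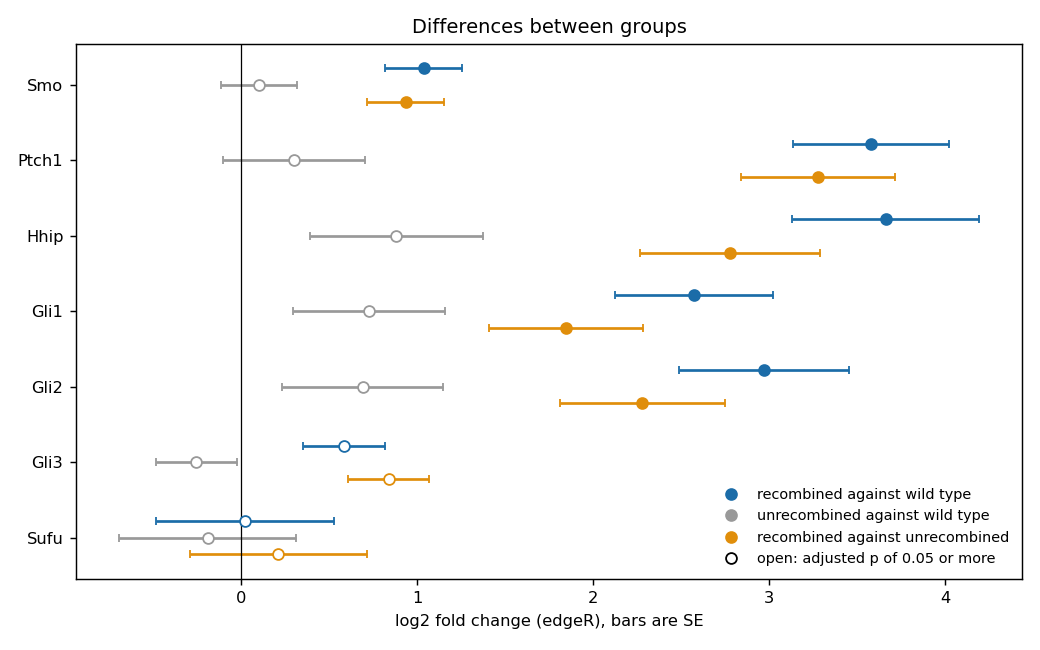
Log2 fold change of each of the 7 genes in the 3 comparisons between groups, with bars of 1 SE to each side and filled points where the test was passed. Smo, Ptch1, Hhip, Gli1 and Gli2 lie right of 0 in both comparisons with recombined cells, and no gene passed the test between unrecombined and wild type cells.

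Between the red groups none of the 7 genes passed the test, with adjusted p values of 1.00 in edgeR. The log2 fold change of unrecombined against wild type cells was 0.88 ± 0.49 for Hhip, 0.73 ± 0.43 for Gli1, 0.69 ± 0.46 for Gli2 and 0.30 ± 0.40 for Ptch1. It was 0.10 ± 0.22 for Smo, -0.25 ± 0.23 for Gli3 and -0.19 ± 0.50 for Sufu. The groups overlapped for all 7 genes. The background was 0% of loci called, with 3.85% at an unadjusted p under 0.05, which none of the 7 reached. DESeq2 called 78 loci in this comparison and none of the 7.

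Groups that did not overlap were also counted. Recombined libraries were all above wild type libraries for 5 of the 7 genes, where 6.33% of loci had this pattern, and above unrecombined libraries for 6, where 5.57% had it. None of the 7 lay wholly below, as 5.91% of loci did against wild type and 5.71% against unrecombined libraries. Between the red groups no gene of the 7 was without overlap, as 2.86% of loci were with unrecombined libraries above and 1.55% with them below. Both comparisons share the recombined libraries. Leaving out any single library kept the 5 calls against wild type in each of the 12 fits. Without recombined 3 and 4 together, Smo (adjusted p = 0.137, edgeR) and Gli1 (adjusted p = 0.0592, edgeR) no longer passed against wild type, and of the 5 genes called against unrecombined cells Ptch1 alone remained. Within the lower number series Ptch1 and Hhip passed against wild type and none passed against unrecombined cells. Within the higher series, with 1 wild type library, none passed in either comparison, and the log2 fold changes against wild type were 1.23 for Smo, 4.02 for Ptch1, 3.19 for Hhip, 3.35 for Gli1 and 2.86 for Gli2.

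Libraries with the same replicate number in the recombined and unrecombined groups deviated together, so differences within a number were also taken on the log2 CPM scale. Ptch1 was higher in the green library of every number, by 1.69, 3.14, 3.76 and 3.72 for numbers 1 to 4. Hhip differed by 1.27, 3.38, 3.12 and 2.55, Gli2 by 0.49, 2.41, 2.38 and 2.98, and Gli3 by 0.13, 1.20, 1.02 and 0.92. For these 4 genes number 1 gave the smallest difference. Smo varied least, with 0.76, 0.95, 0.97 and 1.02, and Gli1 was highest in number 1, with 2.35, 1.43, 1.67 and 2.14. Sufu went both ways, at 2.36 for number 3 and below 0 for the others.

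**Figure D3:**
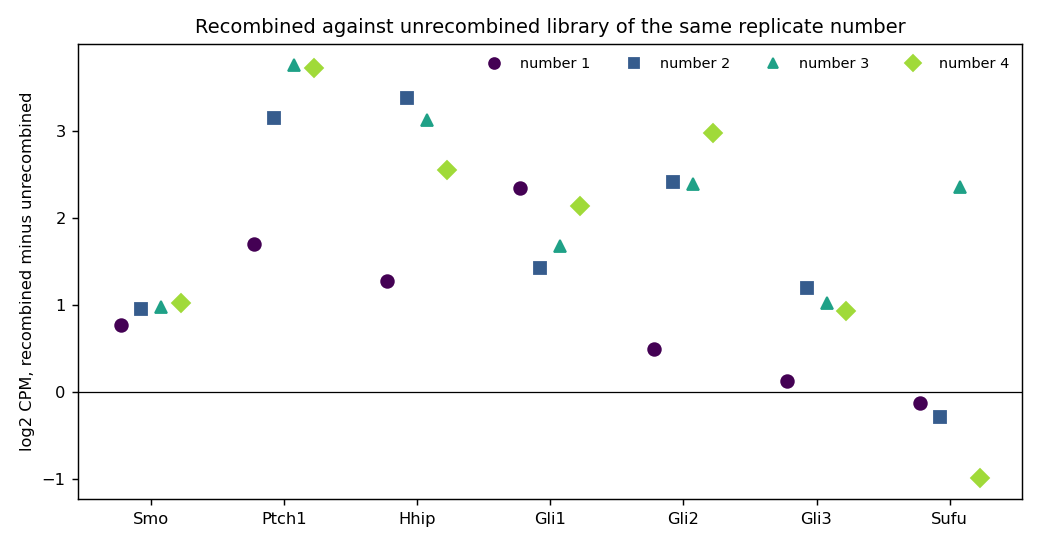
Difference in log2 CPM of each gene between the recombined and the unrecombined library of the same replicate number, 1 point per number. All 4 points lie above 0 in 6 of the genes, number 1 is the lowest for Smo, Ptch1, Hhip, Gli2 and Gli3, and Sufu has points on both sides of 0.

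Levels of different genes were compared per kilobase of exon, with exon lengths from GENCODE M21. The joined counts of Gli1, Smo and Sufu were divided by the exon length of the named gene alone, so their places in the order are approximate. In wild type cells Smo stood highest, at 7.49 ± 1.87 CPM per kilobase (SD, n = 4). Ptch1 at 4.66 ± 0.20 and Gli3 at 4.55 ± 1.28 followed, and these neighbours did not differ beyond their spread. Gli1 at 0.879 ± 0.359, Sufu at 0.445 ± 0.087, Hhip at 0.338 ± 0.188 and Gli2 at 0.293 ± 0.104 formed a lower tier. The last 3 overlapped with one another. Gli1, with its lowest library at 0.549, overlapped with Sufu (up to 0.551) and Hhip (up to 0.608). In recombined cells Ptch1 came first at 55.7 ± 36.4 CPM per kilobase, above Smo at 15.4 ± 3.04, although its lowest library (17.0) lay within the Smo range. Gli3 at 6.82 ± 1.56, Gli1 at 5.24 ± 2.00 and Hhip at 4.29 ± 2.17 overlapped, and Gli2 at 2.30 ± 1.38 lay above Sufu at 0.453 ± 0.238.

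The balance between genes within a library was examined after the levels had been seen. The ratio of Ptch1 to Smo counts was 2.70, 8.85, 5.92 and 10.8 in recombined libraries and 0.857 to 1.97 in red libraries. The ratio of Gli2 to Gli3 was 0.138 to 0.438 in recombined and 0.0215 to 0.110 in wild type libraries, and that of Gli1 to Gli3 was 0.274 to 0.495 against 0.0646 to 0.112. In these 3 ratios the recombined libraries lay above the wild type ones. Unrecombined libraries were below the recombined ones for Gli2 to Gli3, at 0.0813 to 0.108, and overlapped with them for Gli1 to Gli3, at 0.0597 to 0.283. The exact two-sided permutation p against wild type was 0.0286 for each, the smallest that 4 against 4 allows, and 0.103 after adjustment over 18 tests. The ratio of Hhip to Ptch1 was 0.0652 to 0.140 in recombined and 0.0523 to 0.156 in wild type libraries, so these overlapped, as did the ratio of Gli1 to Gli2.

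Markers of some cell types moved with the groups. In the mammary gland basal, or myoepithelial, cells form the outer layer of the ducts and luminal cells the inner one. Of 15 basal markers 14 had a higher level in recombined cells than in wild type cells, and 14 than in unrecombined cells. Over all loci 4.17% and 3.08% were called higher in these comparisons. Krt5, a basal keratin, was at 520 ± 300 CPM (SD, n = 4) in recombined and 51.4 ± 14.2 in wild type libraries, and Krt14, its partner, at 474 ± 210 and 65.4 ± 14.4. The summed basal level was 2234, 5465, 5609 and 9070 CPM in recombined libraries 1 to 4. In the 8 red libraries it was 634 to 1362 CPM, without overlap. Both this sum and the 14 markers include joined entries, such as Tagln with Bace1, Pcsk7 and Rnf214, and Itgb4 with Galk1. Of 11 luminal hormone-sensing markers 7 were lower in recombined than in wild type cells and 3 lower than in unrecombined cells. Over all loci 2.38% and 2.14% were called lower in these comparisons. Without recombined 3 and 4 the basal counts were 3 of 15 against wild type and 6 of 15 against unrecombined cells. The hormone-sensing counts were then 3 and 1 of 11. With all libraries, none of 9 luminal progenitor, 8 pan-luminal and epithelial, 6 endothelial, 5 nerve and 2 adipocyte markers was called against wild type. Of 6 pericyte markers 2 were higher there and 1 lower.

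Of 12 fibroblast markers 10 were lower in recombined than in wild type cells, where 2.38% of all loci were called lower. Against unrecombined cells, where 2.14% of loci were called lower, 11 of the 12 markers were. Their summed level was 215 to 604 CPM in recombined, 5221 to 7386 in unrecombined and 1429 to 3483 in wild type libraries, with Clec3b and Pi16 at 0 in at least 1 recombined library. Without recombined 3 and 4 the counts were 9 and 11 of 12. Col1a1, a collagen chain of fibroblasts, was at 6.83 ± 3.72 CPM in recombined and 473 ± 157 in unrecombined libraries. In such bulk libraries a different share of cells of a type and a different level of RNA per cell cannot be told apart.

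Recombined 1, with the lowest basal level of the green libraries, also had the lowest Smo, Ptch1, Hhip, Gli1, Gli2 and Gli3, and recombined 4, with the highest, had the highest Smo, Ptch1, Hhip, Gli1 and Gli2. Members were therefore set against 100 CPM of summed basal markers, a comparison chosen after the data had been seen. Ptch1 was at 5.93 to 8.92 CPM per 100 basal CPM in recombined, 3.82 to 6.30 in unrecombined and 2.83 to 3.76 in wild type libraries. The recombined libraries stayed above the wild type ones on this scale for Ptch1 alone. Unrecombined libraries were also above the wild type ones for Ptch1, and for Gli2 at 0.235 to 0.602. They overlapped with recombined libraries for Smo, Ptch1, Hhip, Gli1 and Gli2. Smo overlapped with wild type, at 0.823 to 2.20 in recombined against 1.90 to 2.86 in wild type libraries. Hhip at 0.434 to 0.845 against 0.147 to 0.467, Gli1 at 0.336 to 0.500 against 0.204 to 0.561 and Gli2 at 0.200 to 0.317 against 0.103 to 0.224 overlapped with wild type. Gli3 was below it, at 0.680 to 1.81 against 2.09 to 5.12, and Sufu was also below. None of the 21 tests passed adjustment, with a smallest adjusted p of 0.0857 in the exact permutation test, where the smallest unadjusted p possible was 0.0286.

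With the basal marker level as a covariate in edgeR, a fit also added after the data had been seen, none of the 7 genes passed in either comparison with recombined cells. The log2 fold change against wild type was then 1.38 for Ptch1, 1.58 for Hhip, 1.44 for Gli2, 1.15 for Gli1 and 0.45 for Smo. In that fit 2 loci in all were called, down from 920. The covariate was the mean log2 CPM of the 15 markers, not their sum. The sum did not overlap between recombined and red libraries, so marker level and recombined group can hardly be told apart in this fit. The sums of the red groups overlapped with each other. The part of the basal markers in the results was not tested further.

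**Figure D4:**
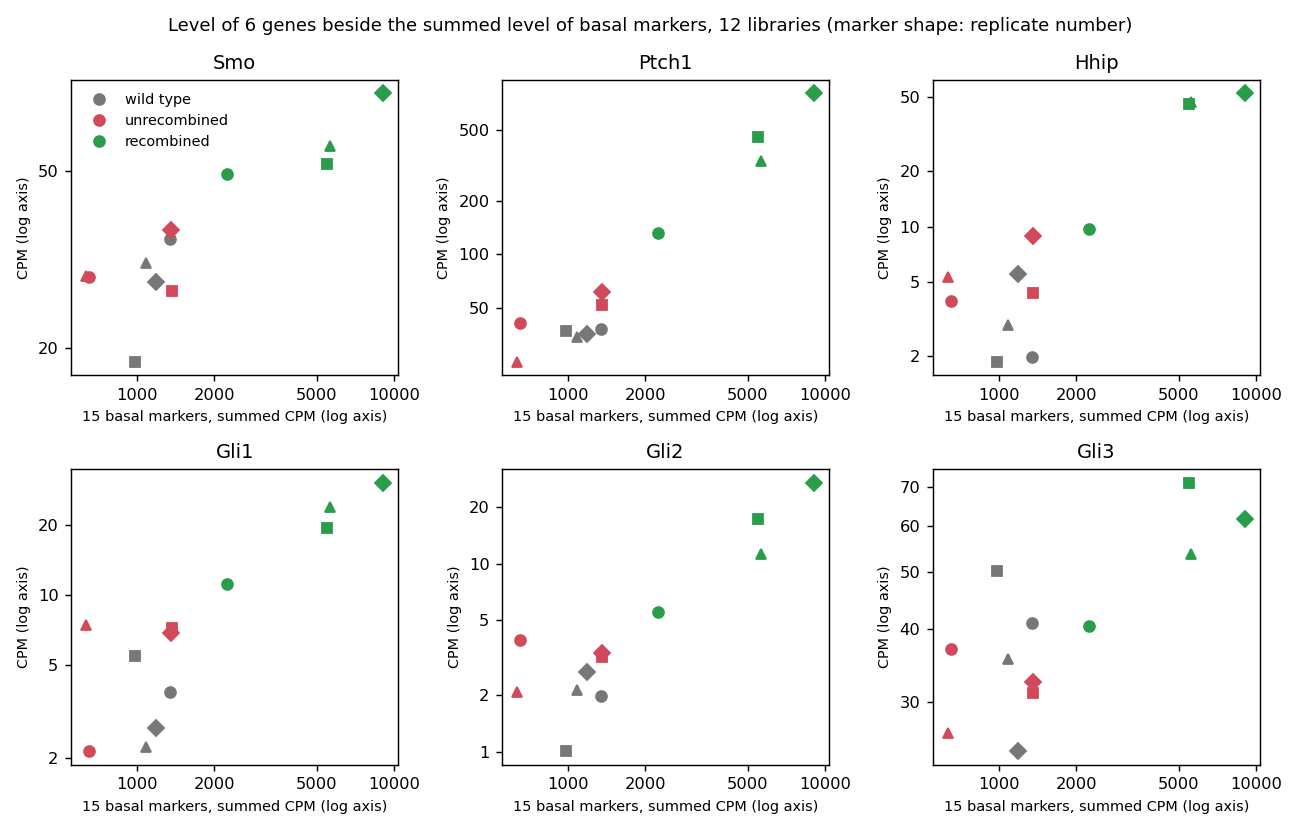
Level in CPM of 6 of the genes (log axis) against the summed level of 15 basal markers in CPM (log axis) in 12 libraries, coloured by group, with point shape for replicate number. Recombined libraries lie right of all red libraries on the marker axis, and recombined 1 lies nearest to the red libraries.

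The other genes of the pathway were taken as lists by role. Over all 14039 loci, 4.17% were called higher and 2.38% lower in recombined than in wild type cells. Of 11 genes of ligand production and reception 9 were tested, with Shh and Ihh below the filter, and 1 was higher and 1 lower in recombined than in wild type cells. Boc, a co-receptor for Hedgehog ligands, was at 42.6 ± 16.0 CPM (SD, n = 4) against 13.7 ± 4.19 in wild type, a log2 fold change of 1.64 ± 0.30 (adjusted p = 0.00558, edgeR).

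Cdon, a related co-receptor, was lower, at 60.1 ± 11.9 CPM against 106 ± 23.9, a log2 fold change of -0.81 ± 0.20 (adjusted p = 0.0289, edgeR). This call was lost without recombined 2 or 3 or without wild type 2, 3 or 4, at adjusted p values between 0.0581 and 0.106. Gas1, the third co-receptor, had 95.0 ± 78.6 CPM against 22.1 ± 11.2 and did not pass (adjusted p = 0.0601, edgeR), though it did without recombined 1 (adjusted p = 0.0148, edgeR). Gas1 also passed with the replicate block (adjusted p = 0.0204, edgeR), the salivary covariate (0.0205, edgeR) and DESeq2 (0.0163). Dhh, the one ligand gene of the list that was tested, had 5.47 ± 6.70 CPM against 1.78 ± 1.32 and did not pass (adjusted p = 0.294, edgeR). Against unrecombined cells Boc was higher (adjusted p = 0.0407, edgeR) and none of the 9 was lower, and without recombined 3 and 4 none passed there. The median log2 fold change of the 9 was 0.90 against wild type cells.

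Of 33 genes of the relay from Smo to Gli, which covers kinases, ubiquitin ligases and ciliary proteins, all were tested and none passed in any comparison in the edgeR fit with group means. For 33 genes this is not far from the 6.55% of all loci called against wild type. The median log2 fold change of the 33 was 0.16 against wild type and 0.09 against unrecombined cells. The smallest p belonged to Fbxw11, a ubiquitin ligase subunit, at -0.64 ± 0.18 (adjusted p = 0.0510, edgeR). Gsk3a, a kinase of Gli proteins, followed at 0.79 ± 0.23 (adjusted p = 0.0604, edgeR). Ulk3 had -0.68 ± 0.24 and Tulp3, a ciliary trafficking protein, 1.17 ± 0.48, and neither passed. DESeq2 put Fbxw11, Gsk3a and Ulk3 under the threshold, with adjusted p values of 0.0230, 0.0147 and 0.0384. In edgeR Fbxw11 passed without recombined 4, unrecombined 3 or wild type 1, with upper quartile scaling (adjusted p = 0.0324), with a stricter filter (0.0476) and with the salivary covariate (0.0478). Gsk3a passed with the replicate block (adjusted p = 0.0358, edgeR) and Tulp3 without recombined 3.

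Of 20 other Gli target genes 17 were tested, and 5 were higher and 1 lower in recombined than in wild type cells, with a median log2 fold change of 0.60. The smallest p values belonged to Prdm1, Cntfr, Pthlh and Jag2. Prdm1, a transcriptional repressor, was at 88.7, 212, 226 and 256 CPM in recombined libraries and at 12.4 to 55.3 in red libraries, and its log2 fold change was 3.29 ± 0.36 (adjusted p = 0.000201, edgeR). Cntfr, a cytokine receptor subunit, was at 16.6, 30.3, 39.5 and 77.3 CPM against 1.15 to 6.18 in red libraries. Pthlh, a secreted peptide of mammary epithelium, was at 17.4 ± 10.9 CPM against 0.979 ± 0.790 in wild type.

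Jag2, a Notch ligand, had a log2 fold change of 2.91 ± 0.62 against wild type (adjusted p = 0.0128, edgeR). The remaining calls are named after their values were seen. Ccnd2, a cyclin, had a log2 fold change of 1.78 ± 0.41 (adjusted p = 0.0187, edgeR). The Ccnd2 call was lost without recombined 4, wild type 2 or wild type 4, at adjusted p values between 0.0569 and 0.0697, and with the replicate block at 0.0541. Osr2, a zinc finger transcription factor, was lower, at 0 to 0.108 CPM in recombined and 0.581 to 1.74 CPM in wild type libraries. Without recombined 3 and 4, Pthlh, Jag2, Osr2 and Ccnd2 did not pass, and 2 target genes were higher and 1 lower of 18 then tested against wild type. Against unrecombined cells 4 of the 17 were higher and 2, Osr2 and Hsd11b1, lower. Of 8 Gli-related zinc finger genes 3 were tested (Glis1, Glis2 and Glis3), and none passed.

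**Figure D5:**
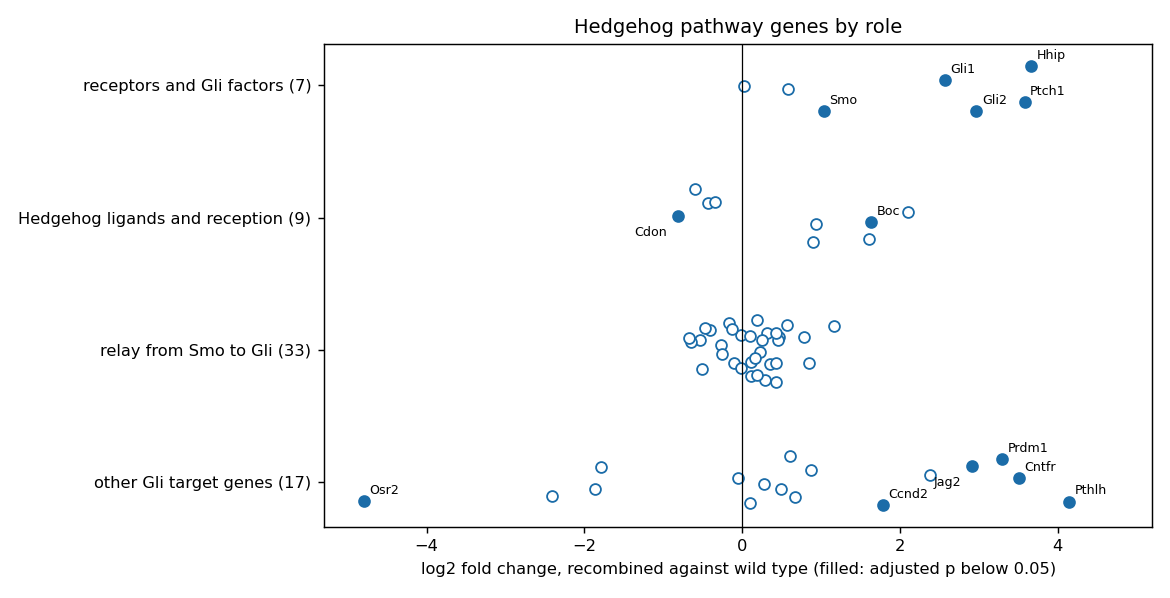
Log2 fold change of recombined against wild type cells for tested Hedgehog pathway genes, in 4 rows by role with the number tested in brackets. Filled points passed the test and are named. The 33 relay genes, with a median of 0.16, have no filled point, and 5 of the 7 receptors and Gli factors are filled. Over all loci 6.55% were called in this comparison.

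Genes whose level followed each of the 7 most closely were found among 8128 loci by Pearson's r of log2(CPM + 0.05), as a description with no test. Over all 12 libraries, where the separation of the groups sets much of r, the closest to Ptch1 were Atp1b3, Gpr125, Apoe and Prkg1, with r from 0.975 to 0.982. For Hhip they were Arl15, Irs1, Sorcs2 and Wif1, for Gli2 Aff3, Fbln2, Eml1 and Rsu1, and for Gli1 Sobp, Lima1, Chl1 and Gpr64. For Smo they were Plcl1, Lgr6, Lama1 and Spred2, of which Lgr6 is also one of the basal markers. For Gli3 they were Fam3c, Rbpj, Tead1 and Abcc1 at r of 0.890 to 0.897, and for Sufu Tmem126b, Ttc33, Ndufb2 and Golga1.

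Over the 8 red libraries other genes came first for 6 of the 7. Arl15 was again the closest to Hhip, at 0.928. For Gli2 the 4 closest were Dse, Thrb, Angptl2 and Ednra, at 0.970 to 0.979. For Ptch1 they were Etfa, Net1, Imp3 and Atad1, and for Smo Snrpa1, Ung, Lbr and Ttll12. For Gli1 they were Zfp160, Clca3, Acot7 and Bax.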

How the data were processed

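RNA of 12 sorted libraries was counted by gene. STAR, HTSeq 0.3.1 and mm9 are named in the submitters' processing notes as what the authors used. Options, strand and annotation are not given in the sources used here. The deposited table holds raw counts for 36635 entries, of which 20114 name 1 locus. Entries naming several loci held 0.0617% to 0.101% of a library's counts and were left out. In 3266 single-locus entries several symbols are joined.

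Counts were filtered with filterByExpr (minimum count 10), scaled by TMM and tested in R 4.3.3 with edgeR 4.0.16 (two-sided quasi-likelihood F test, robust). A single model with group means held the 12 libraries. p values were adjusted over 14039 loci (Benjamini-Hochberg, threshold 0.05). The script was tested on simulated data. The median SE of a log2 fold change was 0.37 between recombined and wild type libraries. Alternatives were DESeq2 1.42.0, limma-voom (limma 3.58.1), other scalings and filters, fewer groups, covariates and left-out libraries.

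Same-numbered libraries of the recombined and unrecombined groups correlated in their deviations from the group mean (r of 0.239, 0.399, 0.244 and 0.298), so the numbers were taken as pairs there. Differently numbered libraries of these groups had r from -0.240 to -0.0345. Between red libraries of different genotypes r reached 0.312 (unrecombined 2 with wild type 2) and 0.337 (unrecombined 4 with wild type 1). The correlation therefore does not show that paired libraries shared animals. Libraries of number 2 also shared high salivary markers, and the part of this was not tested. The pairing comes from the labels' replicate numbers. A further gene of the Hedgehog pathway is not reported here. Named are the 7 genes, up to 4 genes of each pathway list with the smallest p against wild type, and the 4 loci most like each gene; others were named after their values were seen (Ccnd2, Osr2, Hsd11b1, and the markers Krt5, Krt14, Col1a1, Clec3b and Pi16). The genes and lists were chosen with earlier results of these data known. Coordinates and sequences are of GRCm38 and were not set against mm9 positions.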

Additional observations from a re-analysis of the deposited data

Results flagged for a closer look

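In each of the 21 sets of 4 libraries (7 genes in 3 groups) the gap of the highest or lowest library to its neighbour was divided by the range of the group, and 2 sets exceeded Dixon's critical value for 4 samples. Chance alone gives about 1 in 20. Hhip in recombined 1 was lowest, with a gap of 0.85 of the range, at 9.71 CPM beside 46.2 to 52.6 CPM in the other 3. Recombined 1 also had the lowest summed basal markers of its group, 2234 CPM, and the part of this in the value was not tested. Gli1 in unrecombined 1 was lowest, with a gap of 0.891 of the range, at 2.14 CPM beside 6.86 to 7.44 CPM.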

How the results depend on the processing

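Loci called in recombined against wild type cells numbered 920 and became 1617 with DESeq2, 594 with only the groups compared, 75 within the lower library number series, 17 within the higher, 248 without recombined 3 and 4 together, 2 with the basal covariate and 502 to 1217 with 1 library left out. Of the 7 genes 5 were called, with 2 within the lower series, 0 within the higher, 3 without recombined 3 and 4, 0 with the basal covariate and 5 with any 1 library left out. In recombined against unrecombined cells 733 loci became 1349 with DESeq2, 106 and 115 within the series, 282 without recombined 3 and 4, 33 with the basal covariate and 449 to 1044 with 1 library left out. Of the 7 genes 5 were called there, with 0 within either series, 1 without recombined 3 and 4, 0 with the basal covariate and 3 to 6 with 1 library left out. Unrecombined against wild type had 0 loci and gave 78 with DESeq2, 18 with limma-voom, 61 with library weights, 8 with only the groups compared and 1 with the basal covariate.

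The replicate block gave 1194, 1 and 980 loci in the 3 comparisons and changed no call of the 7 genes; Gli3 against unrecombined cells had an adjusted p of 0.0503 in edgeR with it.

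Among the 7 genes signs turned only for values not past the threshold. Sufu against wild type turned to -0.051 with upper quartile scaling, -0.16 and -0.15 with limma-voom, -0.066 and -0.094 within the series, -0.20 without recombined 3 and 4, -0.0026 with the salivary and -0.75 with the basal covariate, and lay between -0.38 and 0.23 with 1 library left out. Sufu against unrecombined cells turned to -0.21 within the lower, -0.56 with the basal covariate and lay between -0.17 and 0.42 with 1 library left out. Between the red groups Smo turned to -0.032 within the lower series and lay between -0.052 and 0.23 with 1 library left out, Gli3 to 0.27 within the higher, and Sufu to 0.15 within the lower and lay between -0.40 and 0.087 with 1 library left out. With the basal covariate Gas1 turned to -0.84, and Jag2 and Krt5, past the threshold without it, turned to -0.14 and -0.25. The cause was not tested. Over the alternatives for the 7 genes, 518 of 588 values kept their direction and side of the threshold. This count includes results that were not called, such as all those between the red groups. A call was lost in 43 values, and Gli1 and Smo against unrecombined cells kept theirs in 19 and 20 of 28 alternatives. Sufu had the fewest counts of the 7, 903 in all; Hhip, with 4701, had a similar SE (0.53 beside 0.50 against wild type).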
